A study of Homo sapiens with 45 samples.

Results

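The data compare transcript profiles of 26 unfixed single cells that differ in how their RNA was released: 15 cells prepared by FRISCR and 11 cells prepared by lysis with the detergent Triton X-100. They were chosen by the sample group in the labels, which gives live cells with FRISCR (spelled FRSCR there) or with Triton X lysis, and they are 26 of the 45 cells of the series. The titles carry other codes, PLRC for the FRISCR cells and RLT for the Triton cells. The other 19 cells were fixed before the same preparations. The series' design line states that the cultured cells were a test of principle for FRISCR, a procedure made to recover RNA from single cells after fixation.

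All 26 cells came from H1, an established line of human embryonic stem cells, which was at passage 40 and had been grown on Matrigel in mTeSR1 medium and dissociated with Accutase. All were DAPI-, that is, without uptake of a dye that enters cells with an open membrane. Libraries were made by Smart-seq2 and Nextera XT, per the labels' protocols, and the labels' extraction protocol describes the handling of cortical tissue. The labels name no separate cultures, sorting days or plates, so each group is 1 sample and its cells are not replicates. The values below are therefore a description with no p-value, and a difference between procedures cannot be told apart from a difference between the cells that each procedure received. A code shared by the sample titles divides the cells into 2 library sets, of 8 and 7 FRISCR cells and of 5 and 6 Triton cells, and each comparison was also made within each set.

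Smart-seq2 starts cDNA synthesis with an oligo(dT) primer, so RNA enters a library mainly through a poly(A) tail or an internal run of A. As the method is generally described, FRISCR digests the lysed cell with a proteinase and collects polyadenylated RNA on oligo(dT) beads, whereas a detergent lysate goes into cDNA synthesis with all of its RNA. The labels here give no such steps. Most messenger RNAs carry a poly(A) tail. Ribosomal RNA does not, and the replication-dependent histone messages, which are made in S phase to package new DNA, end after a short hairpin that is bound by the protein SLBP. MALAT1, an abundant nuclear long noncoding RNA, ends in a triple helix that forms after cleavage of its precursor by RNase P.

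The hairpin is shown for histone genes whose levels are given below, because genes with the same 16 bases had different ratios, which in 2 of the 3 pairs lay on opposite sides of 0 on the log2 scale. The sequences were read from the transcripts of GENCODE release 29 (GRCh38), with the 4-base loop in capitals.
HIST1H4E: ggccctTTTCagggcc
HIST1H4J: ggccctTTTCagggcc
HIST1H2BC: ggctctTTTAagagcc
HIST1H2BD: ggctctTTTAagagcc
HIST1H2AE: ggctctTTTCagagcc
HIST2H2BE: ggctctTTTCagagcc
The HIST1 genes lie on chromosome 6 and HIST2H2BE on chromosome 1. The pattern searched, on the transcript strand, was wider than these hairpins. It was gg, C or T in each of the next 3 places, t, then TTT and any base. After that came a, A or G in each of the next 3 places, and cc. It was present in 49 of 124 histone transcripts (39.5%) and in 20 of 206570 other transcripts (0.00968%). Among the 70 deposited histone rows, 31 had it in at least 1 transcript. The remaining models mostly end near the coding sequence, so the absence of the hairpin there describes the model.

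Total counts per cell had a median of 4786207 in FRISCR cells (3725567 to 6030172) and of 4994021 in Triton cells (4310709 to 6594043). The 8 stem cell markers POU5F1, SOX2, NANOG, LIN28A, DPPA4, TDGF1, ZFP42 and SALL4 together gave 2884 to 5893 CPM (counts per 1000000 of a cell's total) in FRISCR cells and 3132 to 4682 CPM in Triton cells. POU5F1, the pluripotency factor OCT4, stood at 1026 CPM over the summed FRISCR cells and at 905 CPM over the summed Triton cells. SOX2, its partner on DNA, stood at 48.4 CPM with FRISCR and at 27.0 CPM with Triton (log2 ratio 0.84), and its cells overlapped, from 20.9 to 84.3 CPM with FRISCR and from 9.05 to 46.6 CPM with Triton. Blood markers summed to at most 13.5 CPM in a FRISCR cell and 18.3 CPM in a Triton cell, and 3 of the 10 had a count. The mesoderm and endoderm markers ranged from 8.89 to 269.7 CPM in FRISCR cells and from 18.4 to 129.8 CPM in Triton cells. Of these 15 markers 6 had a count, KDR stood highest at 60.4 CPM with FRISCR and 59.4 CPM with Triton, and GATA4, GATA6, FOXA2 and SOX17 had none. The trophoblast and amnion markers ranged from 0 to 125 CPM in FRISCR cells and from 0.420 to 61.1 CPM in Triton cells. Of these 13 markers 6 had a count, KRT7 stood highest at 19.9 CPM with FRISCR and 16.6 CPM with Triton, and GATA3 and CGA had none.

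Most genes stood at similar levels after both procedures. Of 7447 rows with at least 20 CPM in either group, 90.3% were within 2-fold, and the median log2 ratio of FRISCR over Triton was 0.10 (0.06 in set 1 and 0.14 in set 2). A row was counted as over 2-fold different only if it passed 2-fold in the same direction in both library sets. By this rule 208 rows (2.79%) were higher and 98 rows (1.32%) were lower with FRISCR. Among 7264 protein-coding genes the counts were 199 higher (2.74%) and 85 lower (1.17%). Among the 183 other rows they were 9 higher (4.92%) and 13 lower (7.1%).

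For protein-coding genes the difference between procedures was of the same size as the difference between library sets of 1 procedure. The median absolute log2 ratio was 0.338 for FRISCR over Triton with all cells, 0.487 in set 1 and 0.425 in set 2. Between the sets it was 0.435 within FRISCR and 0.483 within Triton. Set 1 alone put 936 protein-coding genes over 2-fold higher and set 2 alone put 700 there, and the 199 shared genes were 21.3% of the set 1 genes and 28.4% of the set 2 genes. The matching counts for lower genes were 572, 499 and 85, with 14.9% and 17.0% shared. The 31 and 18 lower rows that are not protein-coding shared 13, which is 41.9% and 72.2% of them.

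The calls of protein-coding genes lay mostly among weakly expressed ones. In 5 bins of equal size by level, low to high, 140, 33, 15, 9 and 2 genes were over 2-fold higher and 59, 16, 7, 2 and 1 were over 2-fold lower. By GC content of the transcript, low to high, 19, 27, 26, 46 and 81 genes were higher and 21, 23, 12, 15 and 14 were lower. The bin with the highest GC content had a median log2 ratio of 0.20 (0.05 in set 1 and 0.36 in set 2). That with the lowest had 0.05 (0.16 in set 1 and -0.08 in set 2). The medians thus rose with GC content in set 2 but not in set 1. The part of GC content and level in any single gene's ratio was not tested.

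No row was higher in every FRISCR cell than in any Triton cell (0.0%), and 15 rows (0.201%) were lower in every FRISCR cell. Of these 15, 8 are ribosomal RNA rows, and the others are MALAT1, TVAS5, PAR-SN, MTRNR2L1, MTRNR2L2 and the histone genes HIST1H4C and HIST1H1D. The count stayed at 15 whichever cell was left out. The 3 rows among them annotated as protein-coding, HIST1H4C, HIST1H1D and MTRNR2L1, are 0.0413% of the protein-coding genes, against 6.56% for the 12 others among rows that are not protein-coding. In the plot of folds by library set these rows lie far into the corner that is low in both sets.

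**Figure D1:**
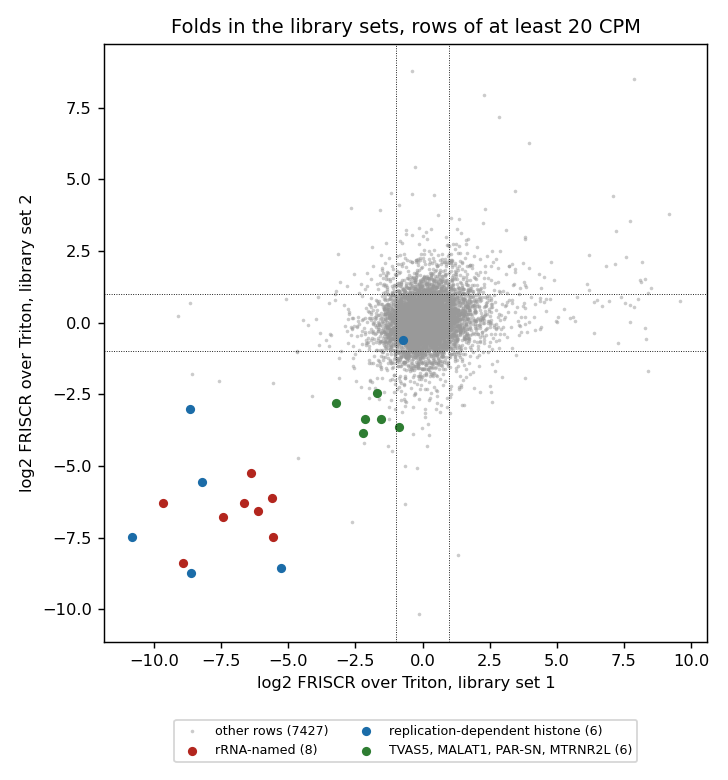
Log2 ratio of FRISCR over Triton in library set 1 (horizontal) and set 2 (vertical) for 7447 rows of at least 20 CPM, with dotted lines at 2-fold. The 8 ribosomal RNA rows and 5 of 6 histone rows lie beyond 2-fold lower in both sets, while the cloud of other rows is centred near 0.

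The RNA classes divided the libraries differently. Rows of protein-coding genes took 92.6% of the counts of the median FRISCR cell (91.6% to 95.7%) and 86.3% of the median Triton cell (75.5% to 91.7%), so the ranges overlapped only at the edge. Pseudogene rows took 0.816% with FRISCR (0.664% to 0.891%) and 1.01% with Triton (0.835% to 1.12%). Long noncoding rows took 0.510% with FRISCR (0.383% to 0.737%) and 0.630% with Triton (0.396% to 0.914%). Rows with no match to the annotation took 5.97% with FRISCR (3.10% to 7.19%) and 10.4% with Triton (5.87% to 22.2%). The 1289 rows of small noncoding RNA took a median of 0.00150% with FRISCR and 0.00127% with Triton, and none of them reached 5 CPM.

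Ribosomal RNA rows were much lower with FRISCR in every cell. The rows whose name contains rRNA number 44, of which 35 had a count in these cells, and together they took 0.00428% of the counts of the median FRISCR cell (0.000741% to 0.0129%) and 1.26% of the median Triton cell (0.565% to 1.90%). Their summed level was 246-fold lower with FRISCR. The highest FRISCR cell, at 129 CPM, lay far under the lowest Triton cell, at 5650 CPM. All 15 of these rows with at least 5 CPM were over 2-fold lower in both sets, against 2.67% of all 11067 rows at that level, and 13 of the 15 did not overlap between cells, against 0.199%. Except for c21_SSU-rRNA_Hsa, c16_SSU-rRNA_Hsa and c2_SSU-rRNA_Hsa, these rows passed 5 CPM through the Triton cells alone, so the 15 are not a picture of all 44.

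The small and the large subunit RNA did not differ by the same amount. The 19 rows named for the small subunit (SSU), whose RNA forms the decoding part of the ribosome, had 4.14, 33.9 and 122 CPM in the lowest, median and highest FRISCR cell and 5458, 12423 and 18555 CPM in the lowest, median and highest Triton cell. Their sum was 292-fold lower with FRISCR. The 25 rows named for the large subunit (LSU), whose RNA forms the catalytic part, had 2.36, 6.89 and 29.03 CPM in FRISCR cells and 124, 155 and 398 CPM in Triton cells, and their sum was 21.2-fold lower. The groups did not overlap for either subunit. These rows carry near-identical repeats, so how the authors' counting divided reads among them is uncertain and the sums are firmer than the single rows.

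Among single ribosomal RNA rows, c21_SSU-rRNA_Hsa held most of the signal. It ranged from 0.436 to 88.8 CPM in FRISCR cells and from 4673 to 15820 CPM in Triton cells. The row c16_SSU-rRNA_Hsa stood at 8.30 CPM with FRISCR and 1112 CPM with Triton (log2 ratio -7.07), and c2_SSU-rRNA_Hsa at 5.48 CPM with FRISCR and 485 CPM with Triton (-6.47). The most abundant large subunit row, c1_LSU-rRNA_Hsa, stood at 2.12 CPM over the FRISCR cells (0.218 to 6.73) and 111 CPM over the Triton cells (55.8 to 284). The row c8_LSU-rRNA_Hsa differed least among those described here, with 2.46 CPM in FRISCR cells and 15.8 CPM in Triton cells (-2.68), and its cells overlapped.

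**Figure D2:**
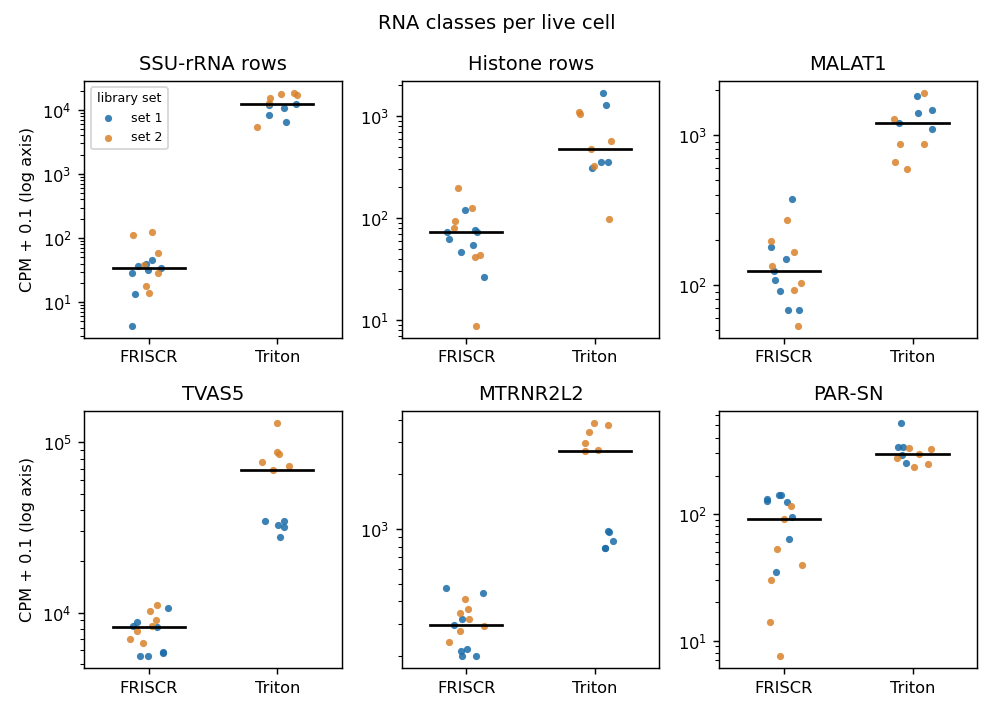
CPM per cell (log axis, 0.1 added) in FRISCR and Triton cells for the summed small subunit rRNA rows, the summed histone rows and 4 single rows; points are cells coloured by library set and bars are medians. The rRNA, MALAT1, TVAS5, MTRNR2L2 and PAR-SN panels show no overlap, the lowest Triton cell for histones (96.9 CPM) lies within the FRISCR range, and for TVAS5 and MTRNR2L2 the Triton cells of set 1 all lie below those of set 2.

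Replication-dependent histone messages were lower with FRISCR as a class, with exceptions. The 70 rows summed to 8.65, 72.7 and 196 CPM in the lowest, median and highest FRISCR cell and to 96.9, 470 and 1691 CPM in the lowest, median and highest Triton cell. Over summed cells this was 75.2 CPM with FRISCR against 708 CPM with Triton, a 9.41-fold lower sum. The cells overlapped, because 1 Triton cell stood under the highest FRISCR cells. Of the 70 rows, 64 had a count, and 50 of these were lower and 14 higher over the summed cells, against 44.2% lower among all 16644 rows with a count. There were 16 rows with no count in the FRISCR cells and 3 with none in the Triton cells. Of 41 rows with at least 1 CPM in either group, 35 were lower and 6 higher, against 42.7% lower among all rows at that level. Of 14 rows with at least 5 CPM, 11 were over 2-fold lower in both sets and 1 was over 2-fold higher, with a median log2 ratio of -3.94 (-4.50 in set 1 and -4.30 in set 2). This median lay between -5.60 and -3.75 when single cells were left out and was -2.63 with mean TPM. The rows passing the minimum, which was in TPM for the last value, were chosen anew each time. The median of all rows at 5 CPM was 0.12, with 5.65% over 2-fold higher and 2.67% over 2-fold lower. Most histone rows pass such a minimum through the Triton cells alone, so the 14 are not a picture of all 70.

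HIST1H4C, 1 of the genes for histone H4, made up most of the histone signal with Triton. It had 0, 2.30 and 21.1 CPM in the lowest, median and highest FRISCR cell and 43.3, 269 and 1071 CPM in the lowest, median and highest Triton cell. The groups did not overlap, and the log2 ratio of the sums was -6.53, with -8.21 in set 1 and -5.57 in set 2.

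The genes HIST1H1A to HIST1H1E encode linker histones, which bind where DNA enters and leaves the nucleosome, and all 5 were lower with FRISCR. HIST1H1D had no count in any of the 15 FRISCR cells and 3.71, 19.7 and 135 CPM in the lowest, median and highest Triton cell. With a floor of 3 counts over the FRISCR cells it was 832-fold lower, and the exact 95% interval began at 676-fold lower. HIST1H1E stood at 0.372 CPM with FRISCR and 30.3 CPM with Triton (-6.35), and nearly all of its FRISCR counts came from 1 cell, FRISCR cell 5, without which the log2 ratio was -11.01. HIST1H1A had 3 counts in the FRISCR cells and 1588 in the Triton cells, a ratio of 0.00150 with an exact 95% interval of 0.000310 to 0.00440. Intervals here and below cover counting error only, and cell numbers are names in accession order. HIST1H1B stood at 0.964 CPM with FRISCR and 23.4 CPM with Triton (-4.60, and -5.85 without FRISCR cell 10). HIST1H1C stood at 3.25 CPM with FRISCR and 16.6 CPM with Triton (-2.35, and -3.02 without FRISCR cell 9), the smallest difference of the 5.

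Histone genes that share a hairpin did not share a ratio. HIST1H4E stood at 0.0826 CPM with FRISCR and 11.7 CPM with Triton (-7.14). Its 6 FRISCR counts all came from FRISCR cell 5. HIST1H4J, with the same 16 bases, had 0, 16.2 and 36.4 CPM in the lowest, median and highest FRISCR cell and 9.66, 27.1 and 57.3 CPM in the lowest, median and highest Triton cell (-0.67). HIST1H2BC had no count in FRISCR cells and 2.33 CPM over the Triton cells. With a floor of 3 counts over the FRISCR cells it was 56.5-fold lower, and the exact interval began at 45.3-fold lower. HIST1H2BD, with the same hairpin, stood at 4.24 CPM with FRISCR and 0.934 CPM with Triton (2.18). The log2 ratio of HIST1H2BD was 3.42 without Triton cell 3 and 1.84 without FRISCR cell 10, and counts were present in 7 FRISCR cells and 4 Triton cells. HIST2H2BE stood at 11.0 CPM with FRISCR and 0.0692 CPM with Triton (7.31), but only 3 FRISCR cells and 2 Triton cells had a count, and the log2 ratio lay between 6.39 and 9.16 when single cells were left out. HIST1H2AE, whose hairpin equals that of HIST2H2BE, stood at 0.923 CPM with FRISCR and 1.66 CPM with Triton (-0.85), and the log2 ratio lay between -2.13 and -0.34 when single cells were left out.

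In the transcript models that hold these hairpins, the transcript continues for different lengths after them: 1022 bases in HIST1H4E, 6 in HIST1H4J, 116 in HIST1H2BC, 39 in HIST1H2BD, 51 in HIST1H2AE and 1729 in HIST2H2BE. HIST1H2BC and HIST1H2BD each have another model without the hairpin, of 659 and 789 bases. That of HIST1H2BD has AATAAA, the usual signal for adding a poly(A) tail, in its last 60 bases, and that of HIST1H2BC does not. The 41 rows with at least 1 CPM were divided by whether AATAAA follows the hairpin in a transcript model. The 14 rows with the signal had a median log2 ratio of -2.59 (-7.14 to 7.31), with 9 over 2-fold lower in both sets and 2 over 2-fold higher, against 3.85% lower and 6.77% higher of all rows with at least 1 CPM. The 9 rows with a hairpin and no such signal had a median of -1.83 (-5.82 to 0.86), with 4 lower and none higher. The 18 rows whose model holds no hairpin had a median of -5.43 (-9.70 to 0.33), with 17 lower. The 41 rows were also divided by AATAAA in the last 60 bases of any model. The 15 rows with it had a median of -2.39, with 9 lower and 2 higher. The 26 without it, some of which hold no hairpin, had a median of -4.64, with 21 lower and none higher. The order of the medians with and without the signal thus depended on how the rows were divided. The rows HIST2H2AA3 and HIST2H2AA4 had equal counts, as did HIST2H3A and HIST2H3C, so how reads were divided within these near-identical pairs is uncertain.

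**Figure D3:**
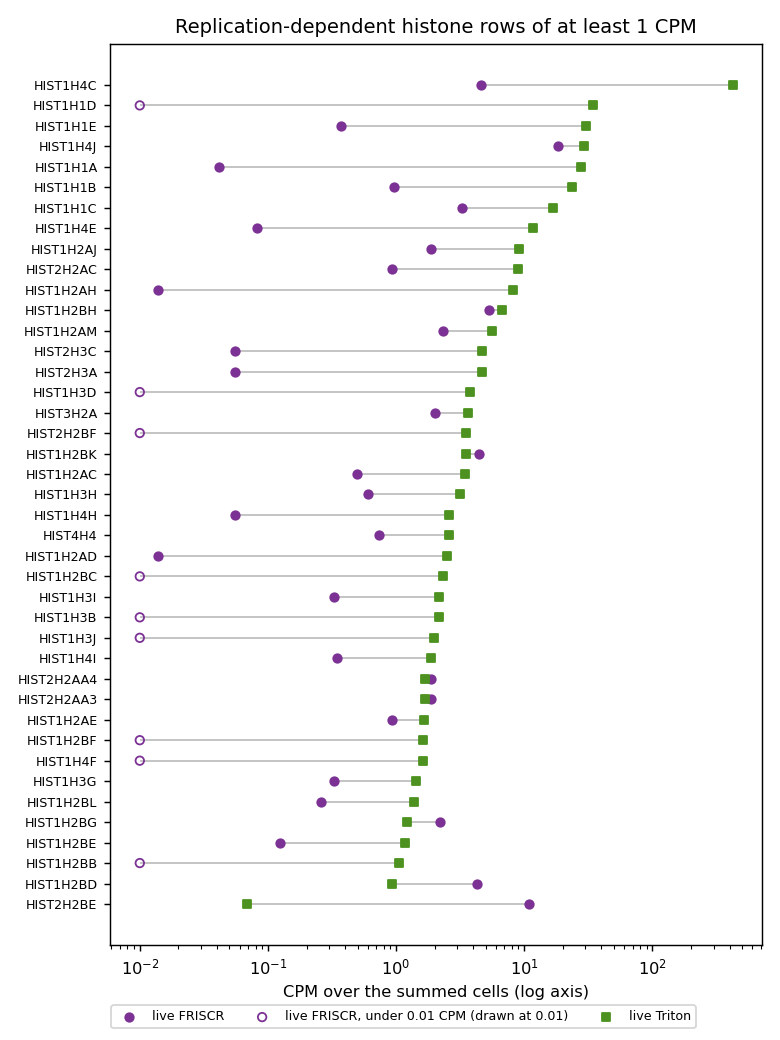
CPM over the summed FRISCR cells (circles, open where drawn at the edge of the axis) and over the summed Triton cells (squares) for the 41 replication-dependent histone rows with at least 1 CPM, ordered by level with Triton on a log axis. For 35 rows the FRISCR value lies left of the Triton value, and at the bottom HIST1H2BD and HIST2H2BE show the opposite order.

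Histone genes whose messages are polyadenylated did not differ in this way. The 12 rows of this list, among them the replacement variants of H2A and H3, summed to 4052 CPM with FRISCR and 4023 CPM with Triton, and none of the 9 measured at 5 CPM was over 2-fold different in both sets. H2AFZ, the H2A.Z variant found around active promoters, stood at 1754 CPM with FRISCR and 1834 CPM with Triton (-0.06). H3F3A stood at 730 CPM with FRISCR and 520 CPM with Triton (0.49), and H3F3B, which encodes the same H3.3 protein, at 1205 CPM with FRISCR and 1381 CPM with Triton (-0.20). Their median log2 ratio was 0.39 (0.27 in set 1 and 0.17 in set 2), beside 0.12 for all rows.

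Genes that go with histone synthesis were also near the median of all rows. SLBP, which binds the hairpin, stood at 68.4 CPM with FRISCR and 47.8 CPM with Triton (0.52). CPSF3, the nuclease that cuts histone precursors after it, stood at 229 CPM with FRISCR and 196 CPM with Triton. None of 12 measured factors of histone 3′ end processing was over 2-fold different in both sets, and their median was 0.16. The 43 genes of DNA replication and S phase had a median of 0.19 and summed to 6979 CPM with FRISCR and 6562 CPM with Triton.

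Among long noncoding RNAs, MALAT1 and MIAT lay on opposite sides. MALAT1 had 52.9, 123 and 376 CPM in the lowest, median and highest FRISCR cell and 590, 1200 and 1916 CPM in the lowest, median and highest Triton cell, with no overlap in either set (log2 ratio -3.20 in set 1 and -2.80 in set 2). MIAT, a nuclear-retained RNA that is spliced and polyadenylated, had 0.218, 204 and 423 CPM in FRISCR cells and 8.19, 83.5 and 149 CPM in Triton cells. Its sums were 204 CPM with FRISCR against 71.8 CPM with Triton, a ratio of 2.84, and it was over 2-fold higher in both sets whichever cell was left out, and its cells overlapped.

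The other long noncoding RNAs gave smaller or less even differences. TUG1 stood at 168 CPM with FRISCR and 120.5 CPM with Triton (0.48). KCNQ1OT1, the long antisense RNA of the imprinted KCNQ1 domain, stood at 9.94 CPM with FRISCR and 23.4 CPM with Triton (-1.24). Its log2 ratio was -2.01 in set 1 and 0.16 in set 2, and -0.65 without Triton cell 2, so it had no single direction. RMST stood at 2.20 CPM with FRISCR and 9.98 CPM with Triton (-2.18), with counts in 4 of 15 FRISCR cells, and at a log2 ratio of -3.15 without FRISCR cell 12. The 6 measured members of the nuclear-retained list had a median of -0.44, which was -1.04 in set 1 and 0.27 in set 2, so the list as a whole had no single direction. ESRG, a transcript of human embryonic stem cells, stood at 2030 CPM with FRISCR and 1959 CPM with Triton (0.05).

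Host genes of small nucleolar RNAs, which are spliced and polyadenylated like messages, were at similar levels. GAS5 had 112, 196 and 268 CPM in the lowest, median and highest FRISCR cell and 79.8, 128 and 268 CPM in the lowest, median and highest Triton cell (0.33). SNHG1, SNHG5 and SNHG6 had log2 ratios of 0.16, 0.37 and 1.02. None of the 12 measured hosts was over 2-fold different in both sets, and their median was 0.33 (0.18 and 0.45). Over all 73 long noncoding rows with at least 5 CPM the median log2 ratio came to 0.08 (set 1 -0.08 and set 2 0.27), with 1 row (1.37%) over 2-fold higher and 6 (8.22%) over 2-fold lower, against 5.65% and 2.67% of all rows at that level.

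A few very abundant rows separated the procedures without being ribosomal RNA by name. TVAS5, for which the annotation used here has no entry, had 5538, 8257 and 11143 CPM in the lowest, median and highest FRISCR cell and 27618, 69016 and 129973 CPM in the lowest, median and highest Triton cell. The groups did not overlap, and the log2 ratio was -2.14 in set 1 and -3.35 in set 2. The difference between the sets lay in the Triton cells, which reached at most 34707 CPM in set 1 and at least 69016 CPM in set 2. MTRNR2L2, 1 of the nuclear copies that resemble the mitochondrial large ribosomal RNA, had 199, 295 and 470 CPM in FRISCR cells and 784, 2674 and 3836 CPM in Triton cells, with log2 ratios of -1.55 and -3.35 in the sets.

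The 10 MTRNR2L rows summed to a level 7.06-fold lower with FRISCR, and since they are near-identical copies, the division of reads among them is uncertain. MTRNR2L1 stood at 2.34 CPM with FRISCR and 21.6 CPM with Triton, with no overlap. MTRNR2L8 stood at 11.6 CPM with FRISCR and 83.5 CPM with Triton, and its cells overlapped. PAR-SN had 7.42, 90.5 and 140 CPM in the lowest, median and highest FRISCR cell and 234, 295 and 523 CPM in the lowest, median and highest Triton cell (-1.95), again with no overlap.

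Other abundant rows without an annotated symbol stood at about the same level. BC018860 stood at 16496 CPM with FRISCR and 15246 CPM with Triton, and cytochromeb at 7203 CPM with FRISCR and 7964 CPM with Triton. STRF6 stood at 6614 CPM with FRISCR and 6241 CPM with Triton. Because the ribosomal RNA rows and the 5 most abundant rows of this kind took more of the Triton libraries, all remaining rows together held 95.3% of the FRISCR counts and 88.6% of the Triton counts. When totals were taken without those rows, the median log2 ratio of all rows was -0.0069 in place of 0.10, so ratios of single genes are best read against the median of all rows.

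Among protein-coding genes higher with FRISCR, 15 were named by a rule that took the largest ratio held by both sets, and all 15 were over 2-fold higher in both. Leaving out 1 cell ended this for 9 of them, COL1A2, CYR61, ENO2, YWHAG, TGIF2, SYT1, HAS3, SPG21 and CAPN1. The 6 that kept it whichever cell was left out were TMED9, TRIM32, DSCC1, FADS2, HNRNPA0 and BCL2L1. All of these 6 overlapped between single cells.

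TMED9, a cargo receptor of vesicles between the endoplasmic reticulum and the Golgi, had 43.2, 125 and 465 CPM in the lowest, median and highest FRISCR cell and 0, 70.05 and 106 CPM in the lowest, median and highest Triton cell. The ratio was uneven between sets, at log2 4.33 in set 1 and 1.71 in set 2. In set 1 the Triton cells reached at most 21.6 CPM, and in set 2 they lay between 70.05 and 106 CPM. FADS2, a desaturase of polyunsaturated fatty acids, had 111, 429 and 1011 CPM in FRISCR cells and 18.4, 121 and 321 CPM in Triton cells (2.29 in set 1 and 1.24 in set 2).

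HNRNPA0, an RNA-binding protein that attaches to AU-rich messages, had 30.6, 169 and 386 CPM in the lowest, median and highest FRISCR cell and 4.41, 69.3 and 148 CPM in the lowest, median and highest Triton cell. It stood at 88.7 CPM in set 1 and 271 CPM in set 2 with FRISCR, and at 24.9 CPM in set 1 and 110 CPM in set 2 with Triton, so both the library set and the procedure went with its level. BCL2L1, the apoptosis inhibitor BCL-XL, had 37.4, 74.0 and 124 CPM in FRISCR cells and 0.464, 34.1 and 65.1 CPM in Triton cells. The log2 ratio was 1.83 and 1.30 in the sets for HNRNPA0, and 1.76 and 1.15 for BCL2L1.

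DSCC1 and TRIM32 stood at lower levels than those 4 genes. DSCC1, part of the complex that loads the replication clamp for sister chromatid cohesion, stood at 61.7 CPM with FRISCR and 21.2 CPM with Triton (1.54), with counts in 14 of 15 FRISCR cells and 9 of 11 Triton cells. TRIM32, a ubiquitin ligase, had 0, 56.1 and 126 CPM in the lowest, median and highest FRISCR cell and 0, 0 and 114 CPM in the lowest, median and highest Triton cell, with counts in 12 of 15 FRISCR cells and 4 of 11 Triton cells. Its log2 ratio was 1.75 with all cells and 2.90 without Triton cell 8, which alone held most of the Triton signal.

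Of the 15 protein-coding genes named as lower by the same rule, 10 were over 2-fold lower in both sets, and 6 of these, STAG1, FAM177A1, NFXL1, KIF14, ARPC1B and KIF15, lost it when 1 cell was left out. HIST1H4C, LIG3, DHX35 and CCDC43 kept it. LIG3, a DNA ligase of single-strand break repair and of mitochondria, had 0, 23.8 and 136 CPM in the lowest, median and highest FRISCR cell and 18.2, 105 and 236 CPM in the lowest, median and highest Triton cell (-1.84 in set 1 and -1.41 in set 2). CCDC43 had 0, 27.2 and 89.6 CPM in FRISCR cells and 43.9, 102 and 144 CPM in Triton cells (-1.63 and -1.34), and DHX35, an RNA helicase, had 0, 24.7 and 84.6 CPM in FRISCR cells and 13.7, 76.6 and 129 CPM in Triton cells (-1.55 and -1.61). All 3 overlapped between the groups.

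STAG1, a subunit of the cohesin ring, had 0, 6.71 and 62.1 CPM in the lowest, median and highest FRISCR cell and 20.8, 57.7 and 167 CPM in the lowest, median and highest Triton cell. Counts were present in 10 of 15 FRISCR cells and in all 11 Triton cells. The log2 ratio was -3.12 in set 1 and -1.22 in set 2, and without FRISCR cell 10 it was -0.94 in that cell's set. AXL, a receptor tyrosine kinase, stood at 93.4 CPM with FRISCR and 175 CPM with Triton (-0.91) and did not reach 2-fold.

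**Figure D4:**
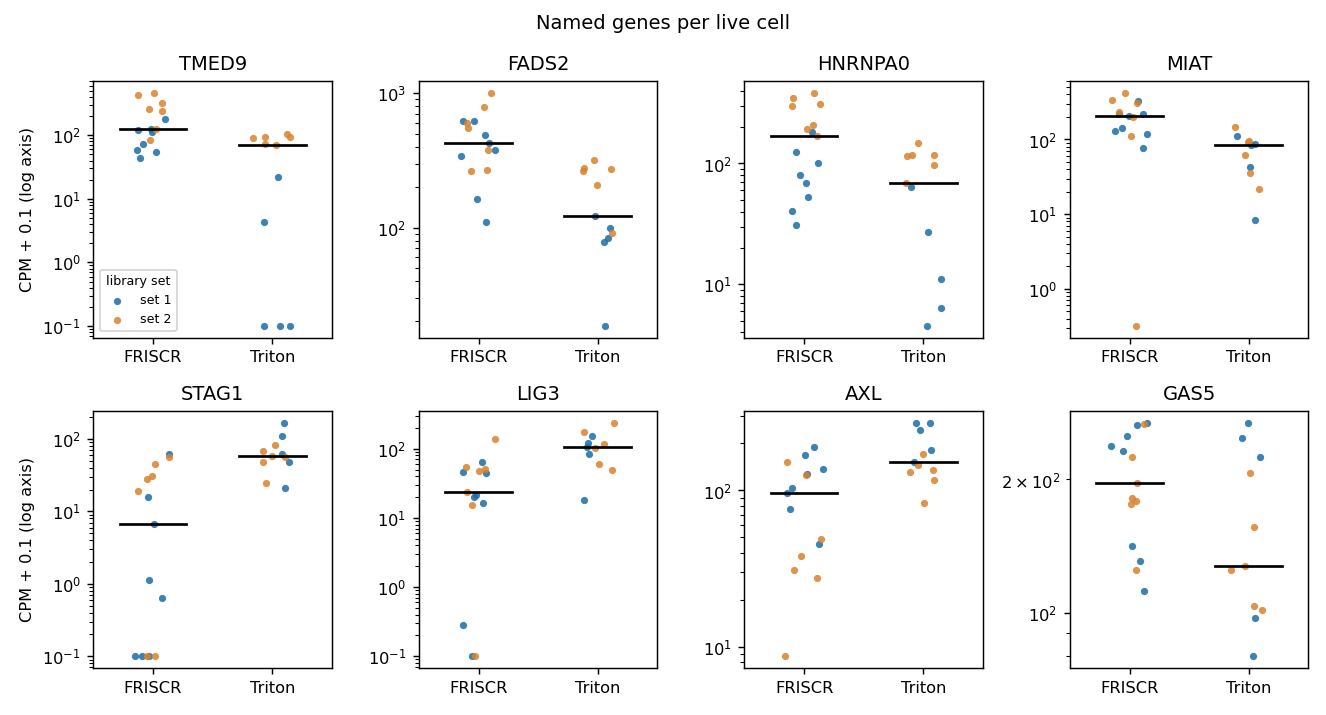
CPM per cell (log axis, 0.1 added) of 8 genes in FRISCR and Triton cells, coloured by library set, with bars at the medians. TMED9, FADS2, HNRNPA0 and MIAT sit higher and STAG1, LIG3 and AXL lower with FRISCR, all 8 overlap, and the Triton cells of set 1 reach at most 21.6 CPM for TMED9.

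STMN2 and FAS were nearly without counts in the Triton cells. STMN2, a microtubule regulator of neurons, stood at 17.3 CPM with FRISCR, with counts in 9 of 15 cells, and had 1 count in 1 Triton cell. FAS, a death receptor and p53 target, stood at 12.2 CPM with FRISCR in 5 cells and had 2 counts in 1 Triton cell. The exact 95% interval of the ratio was 179.6 to 39620.3 for STMN2 and 97.5 to 2920 for FAS. For FAS, leaving out FRISCR cell 11 put the log2 ratio within its set at -0.96. The neural marker list, which holds STMN2, summed to 300.4, 728 and 1288 CPM in the lowest, median and highest FRISCR cell and 559, 744 and 1076 CPM in the lowest, median and highest Triton cell. Of its 14 markers 12 had a count, SOX1 and HES5 had none, and its part in the STMN2 values was not tested.

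Ribosomal protein genes were slightly higher with FRISCR in both library sets. All 80 genes were measured, and 67 were higher with FRISCR in both sets and none lower in both, against 33.0% and 20.2% of all rows at 5 CPM. No member reached 2-fold. Their median log2 ratio was 0.33 (0.26 in set 1 and 0.41 in set 2), beside 0.12 for all rows. RPLP0, the stalk protein of the large subunit, stood at 2126 CPM with FRISCR and 1670 CPM with Triton (0.35), and RPL7 at 2189 CPM with FRISCR and 2210 CPM with Triton (-0.01). The summed level of the 80 genes was 46782, 57498 and 75662 CPM in the lowest, median and highest FRISCR cell and 40535, 49840 and 56755 CPM in the lowest, median and highest Triton cell, with overlap. The large subunit list of 48 genes and the small subunit list of 32 had medians of 0.33 and 0.34.

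Other lists of protein synthesis and mitochondria had medians near or below that of all rows. The 35 translation initiation and elongation factors had a median of 0.13 (0.08 and 0.20 in the sets). EEF1A1, which brings transfer RNA to the ribosome, stood at 9847 CPM with FRISCR and 6436 CPM with Triton (0.61), and EEF2, which moves the ribosome along the message, at 890 CPM with FRISCR and 448 CPM with Triton (0.99). The 75 mitochondrial ribosomal proteins had a median of -0.01, with -0.24 in set 1 and 0.18 in set 2, and the 77 genes of oxidative phosphorylation had 0.10, with -0.15 and 0.31. The 31 genes of the nucleolus and ribosome assembly had -0.08. The signs differed between the sets for these 3 lists, so none of them had a direction.

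Genes of lipid synthesis, the extracellular matrix and the cell surface were among those with medians above that of all rows in both sets. The shares below stand against 33.0% of all rows at 5 CPM higher in both sets and 20.2% lower in both sets. The 30 measured genes of cholesterol and lipid synthesis had a median of 0.41 (0.29 and 0.59), with 21 (70.0%) higher in both sets and none lower, and FADS2 as the only member over 2-fold higher. SCD, a desaturase of saturated fatty acids, stood at 1464 CPM with FRISCR and 973 CPM with Triton (0.59), and FDFT1, which commits precursors to sterols, at 867 CPM with FRISCR and 641 CPM with Triton (0.44). The 32 measured matrix and secreted genes had a median of 0.41 (0.51 and 0.22), with 16 (50.0%) higher and 3 (9.38%) lower in both sets. LAMA5, a laminin chain, stood at 33.8 CPM with FRISCR and 6.09 CPM with Triton (2.47), and HSPG2, the proteoglycan perlecan, at 30.5 CPM with FRISCR and 6.05 CPM with Triton (2.33). The fibroblast marker list, which shares no gene with the matrix list, summed to 94.3, 279 and 539 CPM in the lowest, median and highest FRISCR cell and 42.2, 147 and 419 CPM in the lowest, median and highest Triton cell. Of its 12 markers, 7 had a count, and COL3A1, DCN, LUM, POSTN and FAP had none. COL1A2 stood at 122 CPM with FRISCR and 46.4 CPM with Triton, COL1A1 at 81.8 CPM with FRISCR and 43.6 CPM with Triton, and PDGFRB at 4.43 CPM with FRISCR and 0.0519 CPM with Triton. ACTA2 had 380 counts with FRISCR and none with Triton, TAGLN stood at 65.5 CPM with FRISCR and 63.8 CPM with Triton, and PDGFRA at 0.688 CPM with FRISCR and 4.55 CPM with Triton. Its part in the matrix values was not tested.

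The 49 measured cell surface and adhesion genes had a median of 0.37 (0.40 and 0.23), with 30 (61.2%) higher and 5 (10.2%) lower in both sets. CD24, a surface protein of pluripotent cells, stood at 2885 CPM with FRISCR and 1833 CPM with Triton (0.65), and CLDN6, a tight junction protein of these cells, at 740.5 CPM with FRISCR and 739 CPM with Triton (0.00). The 21 genes of NODAL and FGF signalling had a median of 0.52 (0.25 and 0.64), and FGFR1, a receptor for the FGF2 in the culture medium, stood at 228 CPM with FRISCR and 147 CPM with Triton (0.64).

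The secretory pathway itself lay near the median of all rows. The 36 genes of the early pathway, to which TMED9 belongs, had a median of 0.04 (0.12 and 0.09), and its family members TMED2 and TMED10 stood at 635 and 358 CPM with FRISCR and at 536 and 369 CPM with Triton. Of this list TMED9 and KDELR1, a receptor that returns escaped proteins to the endoplasmic reticulum, were over 2-fold higher in both sets, a share of 5.56% beside 5.65% of all rows. The 32 genes of translocation and glycosylation had 0.08 and the 24 chaperones of the endoplasmic reticulum had -0.05. HSPA5, the chaperone BiP, stood at 1056 CPM with FRISCR and 1508 CPM with Triton (-0.51). Over all 232 genes of the secretory lists the median was 0.22 (0.22 and 0.23), with 108 (46.6%) higher and 29 (12.5%) lower in both sets and 8 (3.45%) over 2-fold higher, the last a lower share than that of all rows.

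Genes of pluripotency, the cell cycle and stress gave medians that were small or differed between the sets. The 27 measured pluripotency genes had a median of 0.18 (0.54 and 0.19), with 12 (44.4%) higher and 1 (3.7%) lower in both sets and none at 2-fold. The 51 genes of G2 and mitosis had a median of -0.16 (-0.17 in set 1 and -0.00 in set 2), with 8 (15.7%) higher and 15 (29.4%) lower in both sets. The 16 immediate early genes had 0.21, with -0.44 in set 1 and 0.79 in set 2, so their median had opposite signs in the sets. CYR61, a matrix-bound early gene, stood at 112 CPM with FRISCR and 47.7 CPM with Triton (1.24), with counts in 12 of 15 FRISCR cells and all 11 Triton cells. Of 24 genes in a list of p53 targets and apoptosis 4 (16.7%) were over 2-fold higher in both sets, FAS, GADD45A, PHLDA3 and BCL2L1, against 5.65% of all rows, and the list median was 0.28 (0.08 and 0.66). Of these 4, FAS lost it with 1 cell left out. With both sets together, the log2 ratios of GADD45A and PHLDA3 lay between 2.13 and 3.50 and between 2.37 and 3.98 over such leave-outs. Whether GADD45A and PHLDA3 kept 2-fold in each set was not asked. The 49 splicing factors had a median of 0.17, with HNRNPA0 over 2-fold higher, and the 31 proteasome subunits had -0.00.

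**Figure D5:**
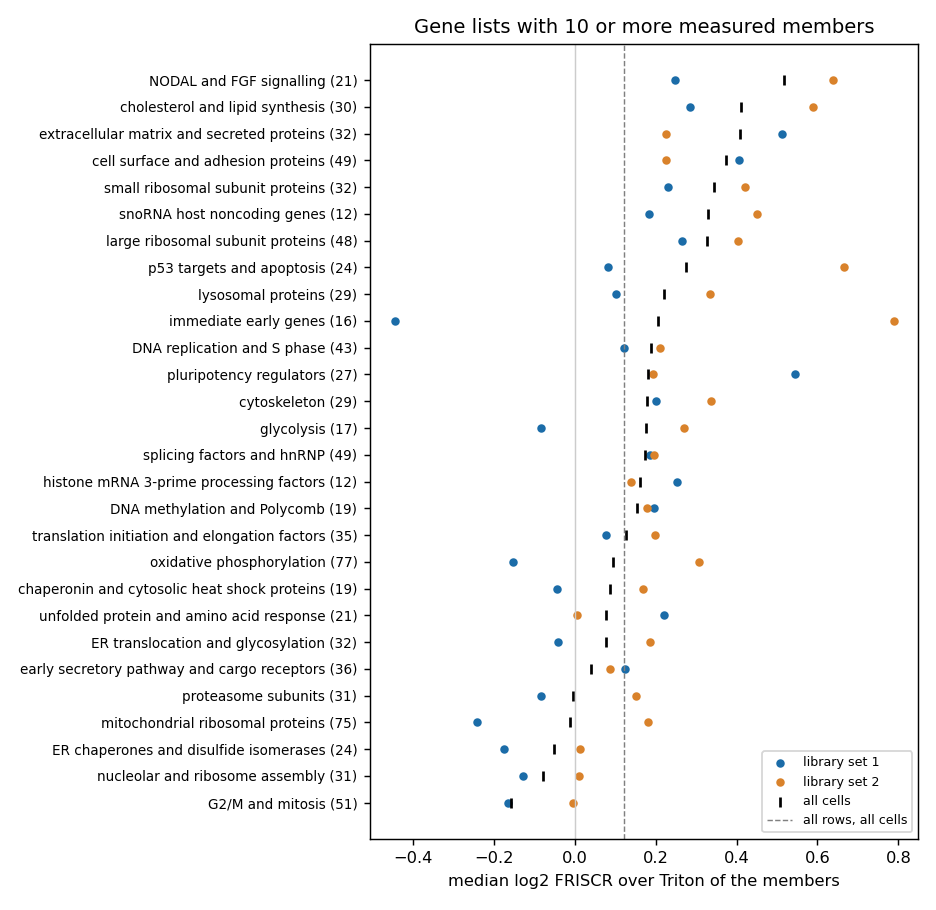
Median log2 ratio of FRISCR over Triton for 28 gene lists with at least 10 measured members, number in brackets, with all cells (bars) and in each library set (points); the dashed line is the median of all rows at 5 CPM, 0.12. The ribosomal protein, lipid, matrix, surface and NODAL and FGF lists lie right of the dashed line in both sets. Other lists do so too, among them those of pluripotency, the cytoskeleton and splicing factors. The immediate early genes are among several lists with points on both sides of 0.

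Over all cells, the ranges of the number of genes detected overlapped between the procedures. After thinning each cell to 1000000 counts, FRISCR cells had 8363, 9070 and 10321 genes at the lowest, median and highest and Triton cells had 8822, 9631 and 10247. The medians in set 1 were 9160.5 with FRISCR and 9077 with Triton, and in set 2 they were 9070 with FRISCR and 9772.5 with Triton, so the order of the medians differed between the sets. In set 1 the ranges were 8363 to 10321 with FRISCR and 8822 to 10195 with Triton. In set 2 they were 8624 to 9565 with FRISCR and 9444 to 10247 with Triton, which overlapped only at the edge. The 100 most abundant rows took 23.4% of the counts of the median FRISCR cell (22.1% to 25.2%) and 28.5% of the median Triton cell (22.6% to 36.6%). The 10621 protein-coding genes with at least 5 CPM were also divided into 5 bins of equal size by level. In the lowest of these bins, a FRISCR cell held a count for 49.6% and a Triton cell for 51.6% on average. The gap was widest in the next bin up, at 69.8% in FRISCR cells and 74.6% in Triton cells. In the highest bin the shares were 99.6% in FRISCR cells and 99.8% in Triton cells. The share was higher in Triton cells in all 5 bins.

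Single cells were about as alike between procedures as within them. The median correlation of log2(CPM + 1) was 0.497 over 105 pairs of FRISCR cells, 0.545 over 55 pairs of Triton cells and 0.510 over 165 pairs across the groups. The summed profiles had a correlation of 0.911 over 7264 protein-coding genes, which share their libraries and are not independent.

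The 15 rows that were lower in every live FRISCR cell were also lower with FRISCR over the summed fixed cells. Protein-coding rows took 92.0% of the summed counts of fixed FRISCR cells and 54.2% of those of fixed Triton cells, and the 8 stem cell markers summed to 4542 CPM in fixed FRISCR cells and 1323 CPM in fixed Triton cells. Beside that, 14 of the 15 protein-coding genes named as higher in live cells were higher with FRISCR in fixed cells, and so were 13 of the 15 named as lower, all but HIST1H4C and AXL. The part of the lower protein-coding share of fixed Triton cells in these orders was not tested. MALAT1 stood at 132 CPM with FRISCR and 1334 CPM with Triton in fixed cells, and HIST1H4C at 5.51 CPM with FRISCR and 1657 CPM with Triton. PAR-SN stood at 84.8 CPM with FRISCR and 279 CPM with Triton there. TMED9 stood at 189.6 CPM with FRISCR and 0.858 CPM with Triton, and MIAT at 156 CPM with FRISCR and 15.7 CPM with Triton. Of the genes named as lower, STAG1 stood at 24.9 CPM with FRISCR and 2.30 CPM with Triton, LIG3 at 58.0 CPM with FRISCR and 37.7 CPM with Triton, and DHX35 at 44.1 CPM with FRISCR and no count with Triton.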

How the data were processed

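Deposited by the authors were a table of estimated counts and a table of TPM, each with 23045 named rows and all cells as columns; 40.3% of nonzero counts are not whole. The submitters' processing notes name the build GRCh37 (hg19). How reads were aligned and counted, and on which annotation, is not given in the sources used here. Estimated counts as deposited were rounded to whole numbers. RNA classes came from GENCODE release 29 by symbol: 19074 rows matched a current symbol, 1983 matched an older one, 71 are ambiguous and 1917 match none.

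CPM are the counts of all cells in a group, added up and taken per total. A sum of 0 was set at 3 counts over the group. Ratios carry exact 95% binomial intervals. Rows needed 20 CPM in either group (5 CPM for gene lists). Genes detected were counted after thinning cells to 1000000 counts. With 1 sample per group no test was possible. The procedure was checked on simulated cells drawn from a single pooled profile. These held no difference between library sets, so the check does not cover such differences. The labels' titles give the 2 library sets.

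Named genes followed a rule: the 15 protein-coding and 10 other rows each way with the largest ratio held by both sets, with 50 CPM and counts in 60% of cells; from each of 39 lists the top 3 by level and the extreme ratio each way at 10 CPM; and the widest gaps between non-overlapping cells. The members and lists were chosen with earlier results of these data known. Other genes were named after their values were seen, and whether a call ends without 1 cell was also asked then. Alternatives used the factors of edgeR 4.0.16 (TMM) and of DESeq2 1.42.0 (median-of-ratios), both under R 4.3.3, mean CPM, mean TPM, other totals, minimums and folds, each library set, and leaving out each cell. Python 3.11.15, numpy 2.4.6, pandas 2.3.3 and scipy 1.17.1 were used.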

Additional observations from a re-analysis of the deposited data

How the results depend on the processing

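No paired analysis was possible because the labels pair no FRISCR cell with a Triton cell and no comparison came from a test. With library set 1 alone, 969 rows were over 2-fold higher and 603 lower, 33 and 54 were apart in every cell, the histone median was -4.50, and the order of the median number of genes detected reversed, by 83.5 more with FRISCR. With set 2 alone the values were 718, 517, 25, 26 and -4.30, and the secretory median was 0.2333; 1 set needs no repeat in the other, so more rows pass. The median of the secretory lists, 0.22, was 0.1957 with TMM, 0.2379 with median-of-ratios, 0.2036 with mean CPM and 0.2038 with mean TPM, all in the same direction. Mean TPM put 88 rows higher and the histone median at -2.63, with the minimums applied to TPM, so other rows could pass. The difference in rRNA share was -3.89 percentage points of TPM in place of -1.25 of counts. What the change of rows and of measure each contributed was not tested. Totals without the rRNA-named and 5 abundant rows reversed the median of all rows to -0.0069, by a smaller Triton total. They gave 0.1138 for the secretory lists and -5.58 for histones. Rows were chosen anew at the minimum with these totals, so the histone value is not a shift of the same rows. A minimum of 1 CPM gave 940 higher, 534 lower, 23 lower in every cell and -3.25 for histones; a minimum of 50 CPM gave 40, 23, -6.53 for histones and 0.208 for the secretory lists. A fold limit of 1.5 gave 593 and 305, and a limit of 3 gave 57 and 35.

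Leaving out each cell gave 195 to 242 rows higher, 88 to 126 lower, 0 to 1 higher in every cell, 15 to 15 lower in every cell, and medians of 0.086 to 0.115 for all rows, -5.60 to -3.75 for histones, 0.30 to 0.36 for ribosomal proteins and 0.16 to 0.25 for the secretory lists. The difference in rRNA share lay between -1.28 and -1.23 percentage points, that of the abundant rows between -5.30 and -3.50, and that of genes detected between -613.5 and -475.5. Of 1449 values of 207 named genes under other settings 75 moved. A reversal was asked only for the 49 of these genes over 2-fold in both sets, and none reversed. By that rule neither set alone could reverse them. Other named genes could change sign, as ESRG did, at a log2 ratio of 0.05 with all cells and -0.46 in set 1. For a row with no count in a group, the ratio depends on the floor of 3 counts and on depth. Of the genes named by the rule, 15 moved over 1.5-fold with 1 cell, COL1A1, COL4A6, DUSP2, FAS, FN1, HIST1H1E, HIST2H2BE, KRT7, MRPL1, PGF, SPRED2, SPRY1, STMN2, TET3 and TRIM32. So did GADD45A, HIST1H1B, HIST1H1C, HIST1H2AE, HIST1H2BD, HIST1H4E, HIST2H2AA3, HIST2H2AA4, HIST2H3A, HIST2H3C, KCNQ1OT1, PHLDA3 and RMST, which the text also names.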
